A study of Homo sapiens with 6 samples.

Results

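SnoRNA host genes carry small nucleolar RNAs in their introns. The 10 followed here are long noncoding RNA (lncRNA) genes: SNHG1, SNHG5, SNHG6, SNHG7, SNHG8, SNHG16, SNHG25, SNHG29, GAS5 and ZFAS1. They are 10 of the 60624 Ensembl genes in the expression table and were found in it by their symbols. The list was chosen with results of the same siCEP20 against siCTR comparison known, so the measured difference between the groups is a description for these genes, no p-value of it is printed for them, and their calls are only counted beside the share called over all genes. All 10 reached the mean of 1 TPM required of the 14778 genes tested.

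The data are RNA-seq of A549, a cell line established from a human lung adenocarcinoma, with 3 samples transfected with a control small interfering RNA (siCTR) and 3 transfected with siRNA against CEP20 (siCEP20), a centrosomal and centriolar satellite protein that binds microtubules. Both groups were transfected for 3 days and neither carries any other labelled change. The methods describe stranded poly(A) libraries and name 2 siRNAs without saying which was sequenced, so an effect of the CEP20 loss and an effect of the siRNA itself cannot be told apart. The labels differ from the methods in the culture medium, the RNA kit and the amount of input RNA, a label field names a plasmid transfection, and no label says that the replicates were separate cultures (the methods speak of independent experiments in general), so p-values measure a spread that may be technical.

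Box C/D snoRNAs (SNORD genes) guide 2′-O-methylation and H/ACA snoRNAs (SNORA genes) guide pseudouridylation, mostly of ribosomal RNA. In mammals most are cut from introns of a host transcript after splicing. The spliced host RNA that remains is often short, ends up in the cytoplasm and is degraded by nonsense-mediated decay (NMD) when it is translated. Many host RNAs start with a C followed by a run of pyrimidines. This 5′ terminal oligopyrimidine (TOP) start is shared with ribosomal protein mRNAs and ties translation to mTORC1 through LARP1, a protein that binds the cap and the TOP start.

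Annotated starts with a C and a pyrimidine run were searched for in the members. Each line below gives 20 bases on both sides of an annotated start of the host transcript, 5′ to 3′ on the strand of the gene, read from hg38 with GENCODE 44. The capitals mark the C at the start site and the unbroken run of C or T after it. SNHG6 was searched in the same way and is given by its run length only.
SNHG29: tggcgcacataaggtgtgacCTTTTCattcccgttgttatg
GAS5: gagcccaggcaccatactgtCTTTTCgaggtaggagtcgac
ZFAS1: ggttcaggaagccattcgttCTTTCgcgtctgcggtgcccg
SNHG5: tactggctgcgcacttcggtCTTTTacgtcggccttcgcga
SNHG16: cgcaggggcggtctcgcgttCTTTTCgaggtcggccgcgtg
SNHG8: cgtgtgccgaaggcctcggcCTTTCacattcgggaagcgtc
SNHG25: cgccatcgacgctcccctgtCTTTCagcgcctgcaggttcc
SNHG7: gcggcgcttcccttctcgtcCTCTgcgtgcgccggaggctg
SNHG1: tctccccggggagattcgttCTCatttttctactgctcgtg

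These windows lie at chr17:16439017-16439057 (plus strand) for SNHG29, chr1:173867969-173868009 (minus) for GAS5, chr20:49278622-49278662 (plus) for ZFAS1, chr6:85678713-85678753 (minus) for SNHG5 and chr17:76557749-76557789 (plus) for SNHG16. Those of the other members lie at chr4:118278738-118278778 (plus) for SNHG8, chr17:64145950-64145990 (plus) for SNHG25, chr9:136728164-136728204 (minus) for SNHG7 and chr11:62855865-62855905 (minus) for SNHG1. A start within 50 bases of the most used annotated start, beginning with C and at least 4 further pyrimidines, was found in 8 of the 10 members. Such a start was taken over the most used one, so genes with more annotated starts had more chances. The start shown for SNHG5 serves 3 of 89 annotated transcripts and lies 15 bases from the most used start. That of SNHG25 serves 1 of 3 and lies 33 bases away, and that of SNHG16 serves 3 of 18 and lies 3 bases away. The run, with the opening C, was 7 bases in SNHG6, 6 bases in SNHG29, GAS5 and SNHG16, and 5 bases in SNHG5, SNHG8, SNHG25 and ZFAS1. In SNHG7 it was 4 bases and in SNHG1 it was 3 bases. By the same search, 6.17% of all 14737 tested genes with an annotation had such a start, as did 6.80% of the 1339 tested lncRNA genes and 77.2% of 79 ribosomal protein genes. The letters describe annotated starts and do not show which start A549 cells used.

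Facts of the whole experiment frame these values. TPM is scaled by transcript length and then to a fixed library total, so each library sums to the same value, sequencing depth is unknown, and values of different genes are comparable per length. CEP20, the targeted gene, had 29.2, 30.5 and 35.1 TPM in the siCTR libraries and 16.2, 15.3 and 17.3 TPM in the siCEP20 libraries, with no overlap between the groups. Its log2 fold change was -0.92 (SE 0.091, limma, adjusted p = 0.000205). The 2-sided exact permutation p was 0.10, the smallest that 3 against 3 allows. Of the A549 markers, KRT7, KRT8, KRT18, ALDH1A1, AKR1B10, NQO1 and AKR1C1 were all above 100 TPM on average in each group, while EPCAM was at 1.04 TPM in siCTR and 3.38 TPM in siCEP20. PTPRC and CD3E of leukocytes and COL1A2 and DCN of fibroblasts were at or near 0, CD14 of the leukocyte list averaged 9.05 TPM in siCTR and 7.91 TPM in siCEP20 with overlapping groups, and COL1A1, another gene of the fibroblast list, rose from 5.52 to 18.9 TPM (limma, adjusted p = 3.1e-05). The median over all tested genes was a log2 fold change of 0.13, and median-of-ratios scaling moved it to 9.4e-05, so differences are also given with that median subtracted. In these bulk samples fewer cells of a type and less RNA per cell cannot be told apart.

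SNHG29 was the most abundant host transcript. SNHG29 (ENSG00000175061, chr17:16438767-16480249, plus strand), the host of SNORD49A, SNORD49B and SNORD65, stood at 1289, 1227 and 1112 TPM in siCTR replicates 1 to 3 and at 662, 687 and 681 TPM in siCEP20 replicates 1 to 3. Every siCEP20 library was far below the lowest siCTR library, and the siCEP20 values lay close together. The mean was 1209 ± 89.8 TPM (SD, n = 3) in siCTR and 677 ± 12.8 TPM (SD, n = 3) in siCEP20, or 56.0% of the control.

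GAS5 was next. GAS5 (ENSG00000234741, chr1:173858559-173868882, minus strand), named for its accumulation in growth-arrested cells, holds 11 snoRNA genes in the RefSeq annotation, the most of any member. It stood at 653, 609.8 and 529 TPM in siCTR and at 346, 346 and 369 TPM in siCEP20. All siCEP20 values were lower, with a wider spread among the controls than among the knockdown libraries. The siCEP20 mean was 59.2% of the siCTR mean.

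ZFAS1 barely separated. ZFAS1 (ENSG00000177410, chr20:49278178-49299600, plus strand), the host of SNORD12, SNORD12B and SNORD12C, had 477, 443 and 406 TPM in siCTR and 374, 312 and 403 TPM in siCEP20. The highest siCEP20 library lay just under the lowest siCTR library. The siCEP20 mean was 82.1% of the siCTR mean.

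SNHG5 had less than 50% of its control level. SNHG5 (ENSG00000203875, chr6:85650491-85678932, minus strand), the host of SNORD50A and SNORD50B, had 421, 369.5 and 364 TPM in siCTR and 165, 194 and 152 TPM in siCEP20. The groups were wide apart, with the siCEP20 mean at 44.3% of the siCTR mean.

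SNHG6 and SNHG7 had near-equal control levels and different distances between the groups. SNHG6 (ENSG00000245910, chr8:66920561-66926398, minus strand), the host of SNORD87, had 222, 215 and 208 TPM in siCTR and 172, 183 and 170.4 TPM in siCEP20. SNHG7 (ENSG00000233016, chr9:136721366-136728184, minus strand), the host of SNORA17A and SNORA17B, had 191, 201 and 196 TPM in siCTR and 140.3, 140.1 and 119.7 TPM in siCEP20. Neither gene's groups overlapped. The siCEP20 mean was 81.4% of the siCTR mean for SNHG6 and 68.0% for SNHG7.

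SNHG1 was the exception in direction. SNHG1 (ENSG00000255717, chr11:62851978-62855953, minus strand), also known as the U22 host gene, carries SNORD22 and 7 further box C/D genes in RefSeq, which makes 8. It had 169.6, 176 and 166 TPM in siCTR and 177, 186 and 221 TPM in siCEP20. Each siCEP20 library was above each siCTR library, but replicate 1 of siCEP20 only just so, and replicate 3 was well above the other two. The siCEP20 mean was 114% of the siCTR mean.

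SNHG8 and SNHG16 had similar control levels and separated under knockdown. SNHG8 (ENSG00000269893, chr4:118278703-118285316, plus strand), the host of SNORA24, had 156, 125 and 98.3 TPM in siCTR and 54.3, 46.4 and 54.7 TPM in siCEP20. SNHG16 (ENSG00000163597, chr17:76557727-76670985, plus strand), the host of SNORD1A, SNORD1B and SNORD1C, had 121, 124 and 127 TPM in siCTR and 77.8, 78.3 and 83.0 TPM in siCEP20. SNHG8 had a wide spread among its controls and SNHG16 a narrow one, and in both genes all siCEP20 libraries were below all siCTR libraries. The siCEP20 mean was 40.9% of the siCTR mean for SNHG8 and 64.4% for SNHG16.

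SNHG25 was the least abundant member and stood farthest below its control. SNHG25 (ENSG00000266402, chr17:64145937-64146476, plus strand), the host of SNORD104 and SNORA50C, had 11.1, 12.6 and 14.4 TPM in siCTR and 3.05, 3.19 and 2.32 TPM in siCEP20. The siCEP20 mean was 22.4% of the siCTR mean, and the groups did not come near each other.

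**Figure D1:**
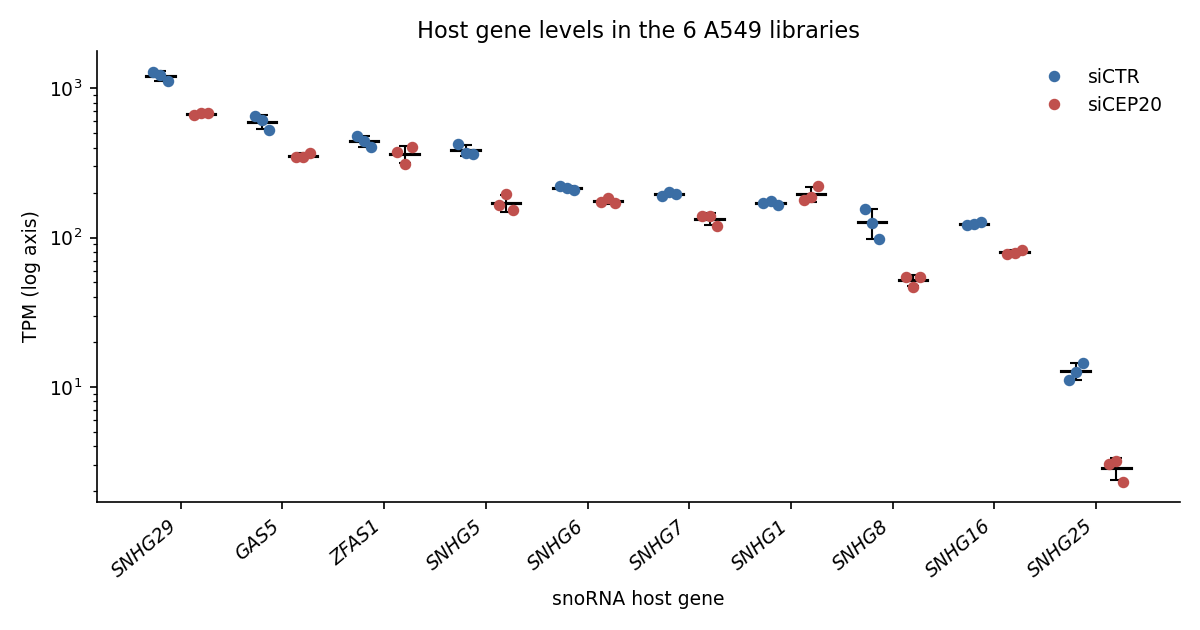
TPM of the 10 host genes (log axis) in each of the 3 siCTR libraries (blue) and 3 siCEP20 libraries (red), with horizontal lines at the group means and bars of 1 SD. SNHG29 leads at 1209 TPM in siCTR and SNHG25 is lowest at 12.7 TPM, and SNHG1 alone has its siCEP20 libraries above its siCTR libraries.

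The order of the levels changed in the middle of the list. In siCTR it ran SNHG29, GAS5, ZFAS1, SNHG5, SNHG6, SNHG7, SNHG1, SNHG8, SNHG16 and SNHG25, in TPM. Only ZFAS1 and SNHG5, and SNHG8 and SNHG16, were neighbours whose 3 values overlapped. In siCEP20 it ran SNHG29, ZFAS1, GAS5, SNHG1, SNHG6, SNHG5, SNHG7, SNHG16, SNHG8 and SNHG25, and overlap was seen for ZFAS1 and GAS5, SNHG1 and SNHG6, and SNHG6 and SNHG5. SNHG1 went from place 7 to place 4 and SNHG5 from place 4 to place 6. SNHG29 was first and SNHG25 last in both groups.

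The members together made up 3711, 3503 and 3221 TPM in siCTR and 2171, 2176 and 2256 TPM in siCEP20. The sum was lower in each siCEP20 library, at 63.3% of the siCTR mean. It made up 0.348% of all TPM in siCTR and 0.220% in siCEP20. The makeup of this pool also differed. SNHG1 made up 4.92% ± 0.31 of it in siCTR (SD, n = 3) and 8.84% ± 0.85 in siCEP20 (SD, n = 3). ZFAS1 went from 12.7% to 16.5%, SNHG5 from 11.1% to 7.76%, and SNHG29 from 34.8% to 30.7%, while GAS5 was at 17.1% and 16.1%. Ratios within a library do not change when that library is scaled by a single factor. Corrections that treat genes differently can change them. The ratio of SNHG1 to GAS5 was 0.260, 0.289 and 0.314 in siCTR and 0.513, 0.538 and 0.599 in siCEP20, so it was higher in every knockdown library. The ratio of SNHG1 to SNHG5 was 0.446 on average in siCTR and 1.16 in siCEP20, and that of ZFAS1 to GAS5 was 0.741 and 1.02.

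On the log2(TPM + 1) scale used for the fit, differences from siCTR covered a wide range. A pseudocount of 1 TPM understates the change of low genes, which among the members touches SNHG25 most. The log2 fold change was -1.83 (SE 0.14) for SNHG25, -1.25 (SE 0.15) for SNHG8 and -1.17 (SE 0.097) for SNHG5. It was -0.83 (SE 0.060) for SNHG29, -0.75 (SE 0.078) for GAS5, -0.63 (SE 0.055) for SNHG16 and -0.56 (SE 0.072) for SNHG7. SNHG6 was at -0.29 (SE 0.055), ZFAS1 at -0.29 (SE 0.0997) and SNHG1 at 0.18 (SE 0.083). With the median over all tested genes subtracted, SNHG25 was at -1.96, SNHG29 at -0.97, GAS5 at -0.88, SNHG6 at -0.43 and ZFAS1 at -0.42. SNHG1 was then at 0.05, and with median-of-ratios scaling at 0.03. Over the 15 alternatives SNHG1 ranged from 0.03 to 0.28. The median over all tested genes ranged from 9.4e-05 to 0.16 under the same alternatives.

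**Figure D2:**
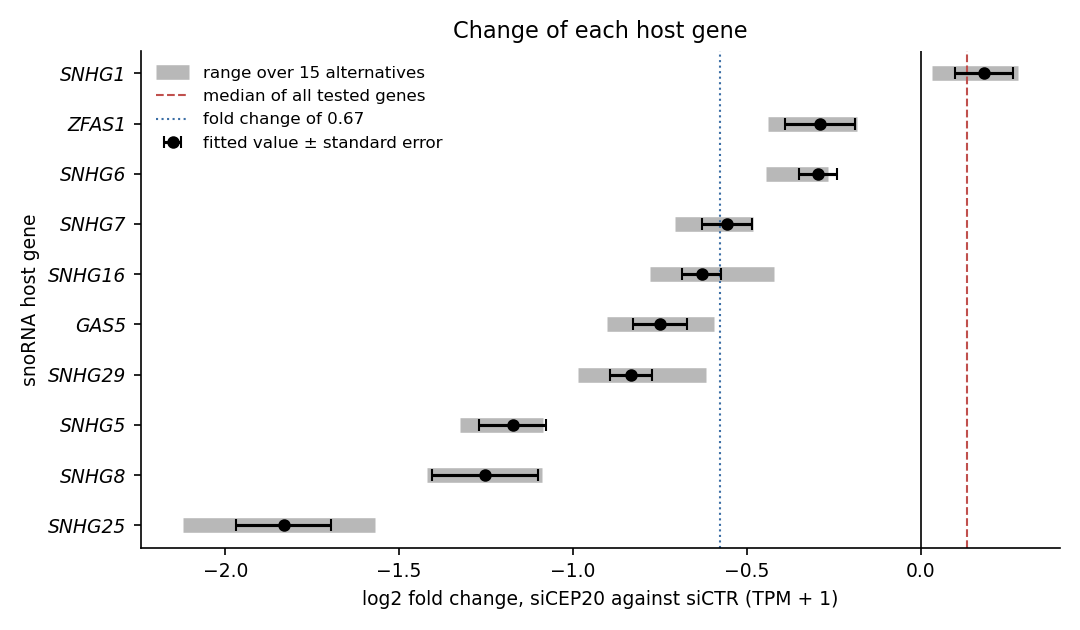
Log2 fold change of each host gene, siCEP20 against siCTR, on the log2(TPM + 1) scale (black points, bars of 1 standard error), with the range over 15 alternative settings in gray. SNHG25 is lowest at -1.83, 9 genes lie below 0 under every setting, and SNHG1 at 0.18 lies near the dashed median of all tested genes at 0.13.

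A call required a limma adjusted p under 0.05 together with a ratio of the groups above 1.5 or below 0.67. In the counts over gene lists below, genes that fell or rose are those called lower or higher. By that rule 6 of the 10 members, SNHG5, SNHG8, SNHG16, SNHG25, SNHG29 and GAS5, were called lower and none was called higher, where 4.61% of all tested genes were called lower and 11.2% were called higher. Of the tested lncRNA genes, 5.15% were called lower and 9.34% higher. Of the 1691 genes averaging 100 TPM or more, 9.46% were called lower. The siCEP20 libraries were all below the siCTR libraries in 9 members, against 17.0% of all tested genes, and all above them in 1 member, against 38.4%. Because the members were chosen on this contrast, nothing is read from these counts. SNHG16, at 0.644 times its control, was the called member nearest the fold threshold, and SNHG7, at 0.680 times, was the nearest not called. The members' median log2 fold change was -0.69, or -0.82 with the median over all tested genes subtracted, and that of the tested lncRNA genes was 0.11.

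**Figure D3:**
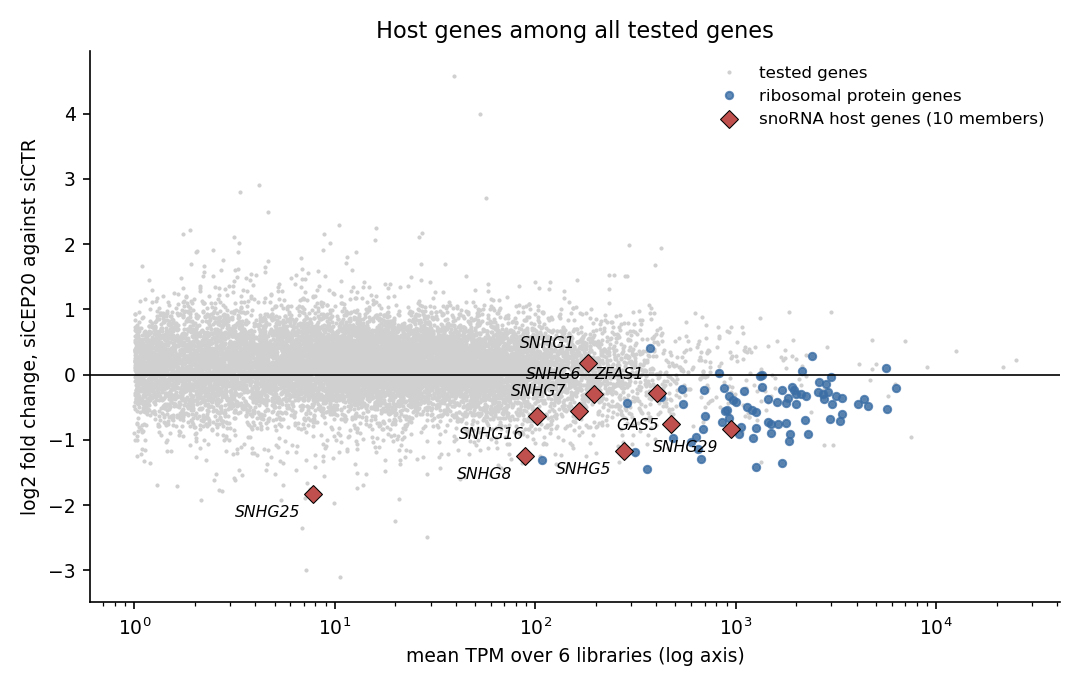
Log2 fold change, siCEP20 against siCTR, against the mean TPM over the 6 libraries (log axis) for all 14778 tested genes (gray), the 79 ribosomal protein genes (blue) and the 10 host genes (red diamonds). The members other than SNHG25 have mean levels near or above 100 TPM, and 9 of the 10 lie below 0.

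The setting of the analysis mattered for a few members. SNHG5, SNHG8, SNHG25, SNHG29 and GAS5 were called lower under all 15 alternatives. SNHG16 was called in 14 of them and missed the fold threshold with the length and GC correction, at a log2 fold change of -0.42. SNHG7 was called in 4: median-of-ratios scaling, at -0.71, quantile normalization, at -0.60, and without siCEP20 replicate 1, at -0.60, or replicate 2, at -0.59. SNHG6, ZFAS1 and SNHG1 were called in none. The direction of each member was the same under all 15.

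Little of the snoRNA content could be read from these libraries. RefSeq places 36 snoRNA genes within the members, counted on either strand, of which 31 are box C/D and 5 are H/ACA. The expression table has 26 snoRNA rows that GENCODE 44 annotates inside a member on the same strand. GAS5, with 11 of the RefSeq genes, has no such row, and SNORD22 and SNORA17B each have more than a single row. The 26 rows therefore do not cover the 36 genes. Of the 26 rows, 2 had a mean of at least 1 TPM, 5 had a mean of at least 0.1 TPM and 5 were at 0 in every library. The libraries were made from poly(A) RNA, and mature snoRNAs have no poly(A) tail. Both readable rows are box C/D snoRNAs, shown with box C (TGATGA) and box D (CTGA) in capitals.
SNORD104: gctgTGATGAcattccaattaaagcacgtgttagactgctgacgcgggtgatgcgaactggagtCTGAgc
SNORD12C: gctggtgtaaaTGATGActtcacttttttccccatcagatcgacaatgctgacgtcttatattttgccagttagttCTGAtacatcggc

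SNORD104 lies at chr17:64146083-64146152 (plus strand) inside SNHG25 and had 35.7, 31.4 and 33.5 TPM in siCTR and 9.37, 8.45 and 6.83 TPM in siCEP20. Its siCEP20 mean was 24.5% of the siCTR mean, beside 22.4% for SNHG25. Reads of the snoRNA and of the short host around it can be assigned to either row, so the values of this pair are not separate measurements. SNORD12C lies at chr20:49278940-49279028 (plus strand) inside ZFAS1 and had 7.43, 3.33 and 3.58 TPM in siCTR and 3.67, 3.65 and 0.587 TPM in siCEP20. Its groups overlapped and its difference did not pass the test (log2 fold change -0.76, SE 0.44, limma, adjusted p = 0.19).

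Other RNAs without a poly(A) tail were also low. RN7SL1, a copy of the RNA of the signal recognition particle, fell from 26.7 to 8.75 TPM (log2 fold change -1.48, SE 0.21, limma, adjusted p = 0.000946), and RN7SL2, another copy, fell from 11.6 to 2.57 TPM (log2 fold change -1.89, SE 0.27, limma, adjusted p = 0.000956). RN7SL3 was at 1.41 and 0.715 TPM and did not pass. These copies are near identical, so the split of reads between them is uncertain. RN7SK had 1.07 TPM in siCTR and 0.690 TPM in siCEP20, and RPPH1 had 0.778 and 0.663 TPM. The 9 genes of that list summed to 37.8 to 49.2 TPM in siCTR and 8.55 to 20.4 TPM in siCEP20. The part of this difference in the values of SNHG25 and SNORD104 was not tested.

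Genes beside the members did not all move with them. Distances and overlaps use the outermost annotated ends of each gene, so the member start meant here can differ from the one shown above. SLC3A2, which encodes the heavy chain of the LAT1 amino acid transporter, starts 51 bases from SNHG1 on the opposite strand. It had 1161, 1098 and 1083 TPM in siCTR and 701, 754 and 748 TPM in siCEP20. The groups were far apart, and SLC3A2 fell (log2 fold change -0.60, SE 0.051, limma, adjusted p = 0.000103), whereas SNHG1 was at 0.18. SLC3A2 stayed below its control but missed the fold threshold without siCTR replicate 1 or siCEP20 replicate 1 (-0.57 in each), with the length and GC correction (-0.54) and with quantile normalization (-0.48). ZNFX1, an RNA helicase gene that starts 248 bases from ZFAS1 and overlaps it on the opposite strand, had 19.1, 24.4 and 22.2 TPM in siCTR and 30.1, 31.7 and 27.8 TPM in siCEP20. All its siCEP20 libraries were above all its siCTR libraries (log2 fold change 0.44, SE 0.101, limma, adjusted p = 0.0093), below the fold threshold, whereas ZFAS1 was at -0.29. The difference within each pair was not tested.

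Overlapping genes at the other members were mostly low. GAS5-AS1, an antisense RNA within GAS5, had means of 0.949 and 1.95 TPM and missed the threshold (limma, adjusted p = 0.051). ZBTB37, which starts inside GAS5 and 800.0 bases from its outermost annotated start, had 1.38 and 1.03 TPM. DIPK1B, which overlaps SNHG7, had 16.1 and 17.1 TPM with overlapping groups. ST6GALNAC2, a sialyltransferase gene that overlaps SNHG16, rose from 1.06 to 3.37 TPM (log2 fold change 1.10, SE 0.21, limma, adjusted p = 0.0038). ENSG00000271793, a protein-coding row on the strand of SNHG5 that overlaps it, rose from 2.27 to 3.93 TPM (log2 fold change 0.60, SE 0.15, limma, adjusted p = 0.015). The latter was not called without siCTR replicate 1 (0.51), siCTR replicate 2 (0.58) or siCEP20 replicate 2 (0.51), nor under 4 of the other settings. GAS5-AS1 was called higher without siCEP20 replicate 1 (0.76) and with the length and GC correction (0.71). LRRC75A and ENSG00000266651, both antisense to SNHG29, and ENSG00000267546, which starts 44 bases from SNHG16, had means under 4 TPM and did not pass. Whether quantification used the strand is not given in the sources used here, so reads of overlapping and antisense genes are uncertain.

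**Figure D4:**
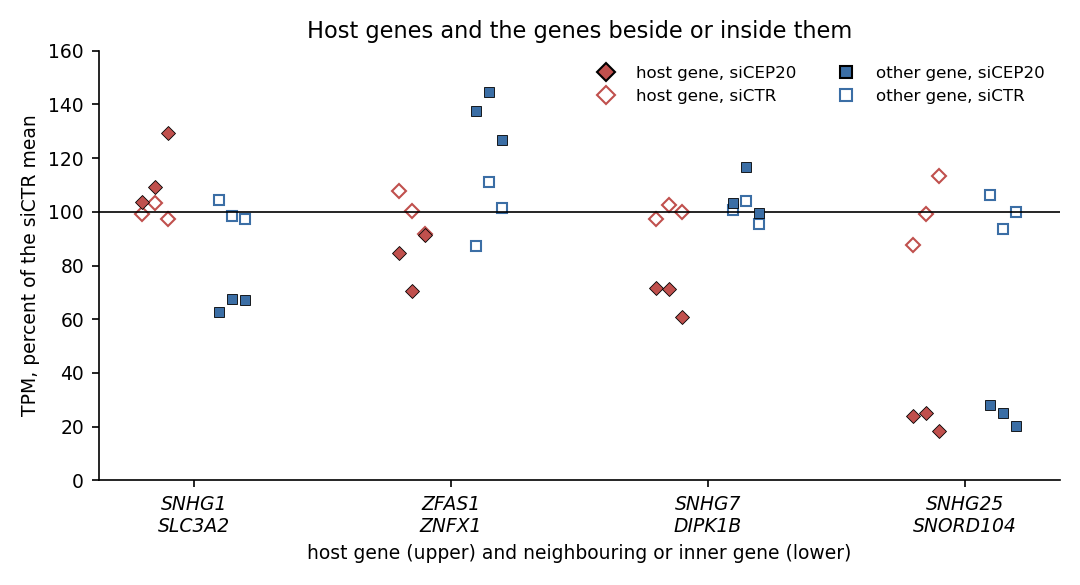
TPM as a percent of the siCTR mean of each gene, for 4 host genes (diamonds) and a gene beside or inside each (squares), in siCTR (open) and siCEP20 (filled) libraries. SNHG1 is at 114% and SLC3A2 at 65.9%, ZFAS1 at 82.1% and ZNFX1 at 136%, while SNORD104 at 24.5% lies near its host SNHG25 at 22.4%.

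Other lncRNA hosts included low and unmoved genes and 2 that were higher by the adjusted p alone. Of 24 such hosts listed, 23 were in the table and 19 were tested, and 7 of the 19 fell, 0 rose, and the median log2 fold change was -0.17 beside 0.13 for all tested genes. By the adjusted p alone, 9 were lower and 2 higher. SNHG32, which hosts SNORD48 and SNORD52, had 271, 265 and 232 TPM in siCTR and 100.2, 94.4 and 94.4 TPM in siCEP20 (log2 fold change -1.40, SE 0.070, limma, adjusted p = 2.2e-05). SNHG19 had 75.8, 63.5 and 52.0 TPM in siCTR and 18.6, 22.3 and 19.8 TPM in siCEP20 (log2 fold change -1.60, SE 0.13, limma, adjusted p = 9.5e-05). SNHG17 fell from 147 to 92.9 TPM (log2 fold change -0.65, SE 0.059, limma, adjusted p = 0.000138). In all 3 the groups were wide apart. EPB41L4A-AS1, SNHG12, SNHG9 and SNHG30, named after their values were seen, also fell, with log2 fold changes from -0.88 to -0.69. SNHG9 was not called without siCTR replicate 1 (-0.83), without siCTR replicate 2 (-0.77) or without siCEP20 replicate 1 (-0.52). The highest log2 fold change in the list was 0.36. By the same search of annotated starts, a pyrimidine start was found in 6 of the 19.

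Ribosomal protein genes, the classical TOP genes, were low whether or not they hold a snoRNA. Of the 29 with a snoRNA gene inside, 11 fell and 0 rose, with a median log2 fold change of -0.44. By the adjusted p alone, 26 were lower and 1 higher, and with quantile normalization 6 were called lower. RPS12 fell from 1839 to 685 TPM (log2 fold change -1.42, SE 0.083, limma, adjusted p = 3.3e-05), RPS3 was at -0.91 and RPL7A at -0.61, both called. Of the 50 without, 18 fell and 0 rose, with a median of -0.48, and by the adjusted p alone 42 were lower and 1 higher. RPL31 (-0.95), RPS18 (-0.91) and RPL9 (-0.97) had the smallest adjusted p of these 50, and the lowest log2 fold change was -1.45. The share called lower was 37.9% and 36.0%, and the difference between these 2 lists was not tested. Among 191 other protein-coding genes with a snoRNA inside, 5 fell and 19 rose, and the median was 0.23. By the adjusted p alone, 26 of the 191 were lower and 84 higher. Those called higher numbered 9 without siCTR replicate 1, 8 with the length and GC correction or median-of-ratios scaling and 10 with quantile normalization, and those called lower numbered 10 with median-of-ratios scaling and 8 with quantile normalization. TNS3, a tensin of focal adhesions, rose (1.09), CD44, a hyaluronan receptor, rose (0.59) and SNRPB, a core spliceosomal protein gene, fell (-0.73). CD44 lies at the fold threshold and missed it under 6 alternatives, 4 of which left out siCTR replicate 1 or 2 or siCEP20 replicate 2 or 3 (0.57 to 0.58).

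Other TOP genes, those of translation factors and similar proteins, were read beside the ribosomal protein genes, and the difference between these lists was not tested. Of 20 tested, 0 fell and 1 rose, with a median log2 fold change of 0.08, and 14 of the 20 had the pyrimidine start. PABPC1, the cytoplasmic poly(A)-binding protein, rose from 719 to 1131 TPM (log2 fold change 0.66, SE 0.087, limma, adjusted p = 0.000722). EEF1D, a subunit of the elongation factor that recharges eEF1A, was at -0.44 and BTF3, a subunit of the nascent chain complex, at 0.36, both under the fold threshold. By the adjusted p alone, 5 of the 20 were lower and 7 higher. Over all tested genes, those with a pyrimidine start had a median of 0.09 and 8.03% of them were called lower, against 0.13 and 4.40% of those without. The genes with such a start include 61 ribosomal protein genes and 8 members, so these values are not separate from those lists. The shares without these genes were not computed. The 19 genes listed as regulators of TOP translation include genes of the mTORC1 pathway and the LARP family, and also CNBP, TIA1 and TIAL1. Of the 19, 0 were called lower and 2 were called higher, with a median of 0.26. By the adjusted p alone, 2 of the 19 were lower and 9 higher. TSC2, an inhibitor upstream of mTORC1, was at 0.69 and AKT1S1, an mTORC1 subunit, at 0.63, both called, and LARP4 was at 0.54. PABPC1 was not called without siCTR replicate 1 (0.56), AKT1S1 without siCTR replicate 2 (0.57) or siCEP20 replicate 3 (0.54), and LARP4 was called without siCTR replicate 2 (0.62). With median-of-ratios scaling, 0 of these regulators and 0 of the other TOP genes were called higher.

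Genes that make and degrade the products of the hosts were measured as well. Of 20 proteins of the snoRNA particles and their assembly, 0 were called lower and 1 was called higher, with a median log2 fold change of 0.03. By the adjusted p alone, 7 of these were lower and 4 higher. NOLC1, a nucleolar chaperone of snoRNA particles, had 59.3, 81.6 and 66.4 TPM in siCTR and 123, 148 and 139.8 TPM in siCEP20 (log2 fold change 0.98, SE 0.12, limma, adjusted p = 0.000496). TCOF1, a related nucleolar phosphoprotein, was at 0.57 and SNU13, which binds box C/D snoRNAs, at -0.40, both under the fold threshold. Of 20 NMD factors, 0 were called lower and 3 were called higher, with a median of 0.13 beside 0.13 for all tested genes. By the adjusted p alone, 2 of the NMD factors were lower and 7 higher. UPF2 (0.68) and RNPS1 (0.65) were among those called higher. RNPS1 was not called without siCTR replicate 1 (0.58), TCOF1 was called without siCEP20 replicate 3 (0.59) or siCTR replicate 3 (0.62), and with median-of-ratios scaling 0 of the NMD factors were called higher. The 6 mRNAs listed as sensitive to NMD, ATF4, ATF3, GADD45A, GADD45B, UPP1 and TBL2, had log2 fold changes between -0.07 and 0.15, and limma called 0 of them, with 0 at an unadjusted p under 0.05 as well.

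**Figure D5:**
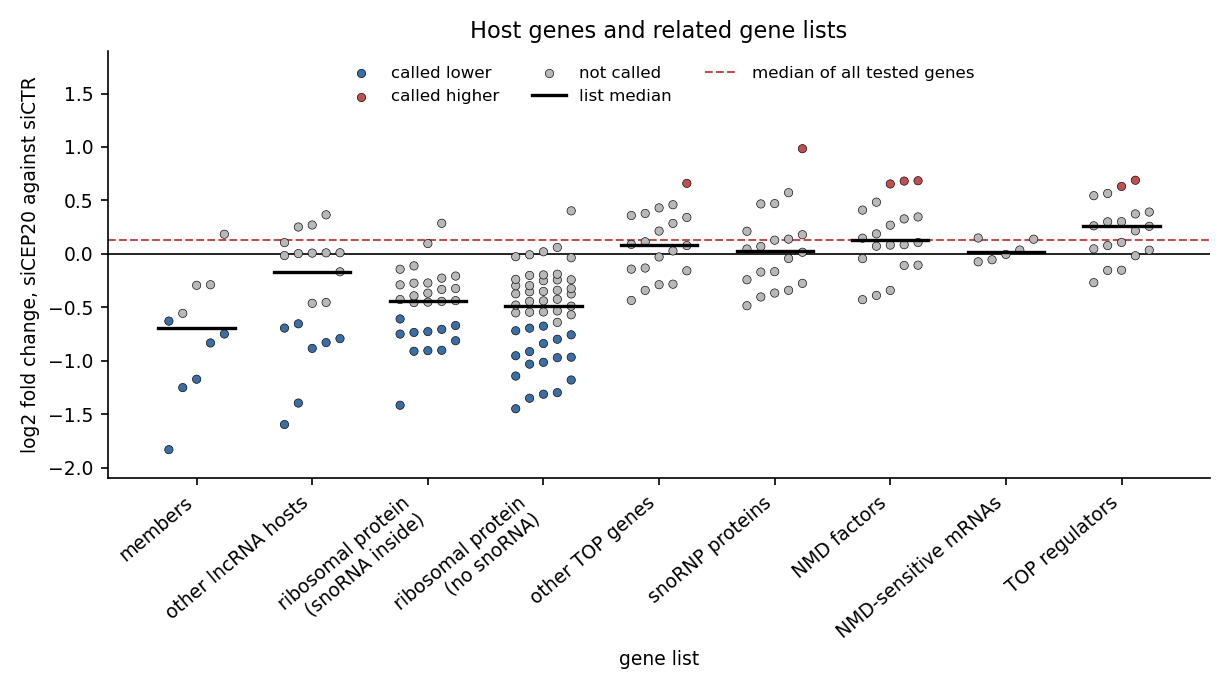
Log2 fold change of each tested gene, siCEP20 against siCTR, in the host gene members and in 8 related lists, colored by call, with black lines at list medians and a dashed line at the median of all tested genes (0.13). The members (-0.69) and both ribosomal protein lists (-0.44 and -0.48) have the lowest medians, and NMD-sensitive mRNAs lie near 0.

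Across the 6 libraries, the genes nearest the members' mean profile were searched among 8939 other genes averaging at least 10 TPM. Likeness was the Euclidean distance between centered log2(TPM + 1) values and the members' mean profile. The nearest were RPS9, a ribosomal protein gene (distance 0.039), TMA7 (0.049), NME1, a nucleoside diphosphate kinase gene (0.072), RAB5IF (0.081) and UXT, a prefoldin-like gene (0.090). RPS9 had 1995, 1882 and 1804 TPM in siCTR and 1106, 1116 and 1133 TPM in siCEP20. The members themselves lay at distances from 0.13 for SNHG29 and 0.15 for GAS5, the nearest, to 1.16 for SNHG1 and 1.40 for SNHG25, the farthest. Every gene named as nearest lay closer to that mean profile than any member did. The libraries are shared by all genes and the members were chosen on this contrast, so this ordering is a description.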

How the data were processed

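The authors trimmed reads with fastp (0.20.1), aligned them to hg38 with HISAT2 (2.1.0), quantified genes with StringTie (2.0) and deposited TPM per Ensembl gene. The annotation release and the strand setting are not given in the sources used here. TPM holds no read counts, so depth is unknown and precision rests on 3 samples per group, and the authors' count test, DESeq2, could not be repeated. Genes were placed with GENCODE 44, which matched 99.6% of rows.

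In the 14778 genes averaging 1 TPM or more, siCEP20 was set against siCTR on the log2(TPM + 1) scale by limma (version 3.58.1, under R version 4.3.3) using lmFit and a trended eBayes, with no scaling and no replicate block. P-values were adjusted over all 14778 by Benjamini-Hochberg, and calls required an adjusted p under 0.05 together with a ratio above 1.5 or below 0.67. The steps were tested on simulated data. The members and the gene lists were chosen with earlier results of these data known, and no set test was run.

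Named genes were the members, CEP20, snoRNA rows and overlapping or divergent genes at the members with a mean of at least 1 TPM (opposite-strand starts within 1000.0 bases), the 3 tested genes of each list with the smallest adjusted p, the 5 genes with the nearest profile, and 5 small noncoding RNAs. A few genes that this rule names are not reported here. Start sites were annotated ones within 50 bases of the most used, and a start with a run of at least 5 bases was preferred. Alternatives were other pseudocounts, filters, scalings and eBayes settings, a length and GC correction (loess, span 0.5), snoRNA rows added to the host, the replicate block, and each library left out.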

Additional observations from a re-analysis of the deposited data

How the results depend on the processing

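Under the 15 settings, the members called lower numbered 5 to 7 and those called higher 0. The share of all tested genes called lower was 2.08% to 7.46% under these settings. SNHG1 was above 0 and the other 9 members below 0 under each of the 15 settings. The members' median log2 fold change of -0.69 became -0.57 with the length and GC correction, -0.84 with median-of-ratios scaling and -0.82 with the median over all tested genes subtracted. Over all tested genes, 682 were called lower and 1659 higher, which makes 70.9% of the calls higher. Median-of-ratios scaling gave 1103 lower and 894 higher (44.8% higher), quantile normalization 1016 lower and 923 higher (47.6% higher), and the adjusted p alone 1944 lower and 4457 higher. In the 10 lists around the members, genes called higher numbered 15 with the length and GC correction, 11 with median-of-ratios scaling, 17 with quantile normalization and 16 to 34 with 1 library left out, and median-of-ratios scaling called 64 lower. Genes near 0 changed sign without passing any test: UPP1 to 0.015 with the length and GC correction (-0.11 to 0.019 with 1 library left out), GADD45B to -0.012 with median-of-ratios scaling, DIPK1B to -0.059 with median-of-ratios scaling and -0.061 with quantile normalization, KLF9 to -0.040 with the length and GC correction, -0.067 with median-of-ratios scaling and -0.11 with quantile normalization (-0.046 to 0.11 with 1 library left out), and ENSG00000267546 (-0.056 to 0.49 with 1 library left out). The causes were not tested. Of the other named genes' values under the alternatives, 824 kept their direction and call, 53 lost the call and 11 gained it.

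The replicate numbers showed no clear pairing of the samples. Libraries of the same number had correlations of 0.157, -0.061 and -0.062 in their deviations from the group means. The siCEP20 replicates 2 and 3 each correlated best with another number. Correlations this weak cannot show whether samples of the same number were handled together. With the replicate block 694 genes were called lower and 1654 higher, and 6 members were called lower. Depth is unknown, so rows near 1 TPM, such as most snoRNAs, are limited by an unknown number of reads.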

Other observations

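GAS5 RNA can bind the glucocorticoid receptor as a decoy, so the receptor and genes it induces were read beside GAS5. Of 9 genes listed, 8 were tested, and 3 rose, 0 fell and the median log2 fold change was 0.53 beside 0.13 for all tested genes. TSC22D3, which encodes the glucocorticoid-induced leucine zipper, had 37.4, 34.2 and 35.0 TPM in siCTR and 63.9, 67.9 and 68.4 TPM in siCEP20 (log2 fold change 0.89, SE 0.065, limma, adjusted p = 6.5e-05). SGK1, a kinase gene induced by serum and glucocorticoids, had 32.4, 33.6 and 36.8 TPM in siCTR and 64.1, 72.3 and 72.0 TPM in siCEP20 (log2 fold change 1.00, SE 0.078, limma, adjusted p = 7.4e-05). In both genes every siCEP20 library was well above every siCTR library. NR3C1, the receptor itself, rose from 29.9 to 45.3 TPM (log2 fold change 0.59, SE 0.091, limma, adjusted p = 0.0015), but it lies at the fold threshold and missed it under 7 alternatives, at 0.53 to 0.56 in the 4 that left out siCTR replicate 1 or 2 or siCEP20 replicate 1 or 2. MT2A, a metallothionein gene, was at 0.52 and DUSP1, a MAP kinase phosphatase gene, at 0.54, both under the fold threshold, and DUSP1 was called higher without siCTR replicate 2 (0.63) or siCEP20 replicate 1 (0.59). FKBP5, a chaperone gene induced through the receptor, went the other way. It had 7.94, 7.69 and 9.41 TPM in siCTR and 6.0, 6.89 and 6.87 TPM in siCEP20, with every siCEP20 library below every siCTR library, and its difference did not pass (log2 fold change -0.30, SE 0.11, limma, adjusted p = 0.061). PER1 was at 0.28 and KLF9 at 0.05, with overlapping groups, and ZBTB16 was listed at 0 in each library. The genes named here beyond TSC22D3, SGK1 and MT2A were named after their values were seen. GAS5 itself was at -0.75. Whether these genes and GAS5 are related in these cells was not tested.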
